A study of Mus musculus with 2 samples.

Results

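The transporters of nutrients, ions, bile acids and drugs that small-intestinal epithelium is known for were followed as a group of 49 genes in mouse organoids cultured with or without RankL, out of 12877 genes or accessions measured. The members are known intestinal carriers of sugars, amino acids, ions, metals, vitamins and bile acids together with the ABC transporters. A probe was assigned to a member through the RefSeq accession it carries, which gave 73 probes for 48 members, while Slc6a20a had no probe with a matched accession. Of these 48 genes, 40 were measured, which means that at least 1 probe was well above background on both arrays in the RankL RNA or on both in the untreated RNA. The other 8 (Slc15a1, Slc9a2, Slc9a3, Slc4a4, Slc13a1, Slc28a2, Slc13a2 and Abca1) had probes that did not reach this level.

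The organoids were epithelial structures grown from small-intestinal crypts of wild-type mice in crypt medium holding R-spondin, EGF and Noggin. The cytokine RankL, which acts through the receptor RANK, was recombinant mouse protein used between 50 and 200 ng/ml, the medium was renewed on days 2 and 5, and untreated organoids received none. Neither the exact dose, the harvest time nor the number of mice behind these RNAs is given in the sources used here. The RNA pair was hybridised on 2 dual-colour arrays of 1 slide, where array 1 carried RankL RNA in Cy3 and array 2, the labelled dye swap, carried it in Cy5. This is 1 replicate per group, so no test was possible, and each ± below gives the SD between both arrays, which is technical and leaves out how cultures vary.

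Epithelial cells move nutrients in steps. Apical carriers such as the sodium-glucose transporter Slc5a1 load the cell from the lumen, driven by the sodium gradient that the Na,K-ATPase maintains, and basolateral carriers such as Slc2a2 release the solute towards the blood. Several amino acid carriers work only as pairs of a light chain (Slc7 family) and a heavy chain (Slc3a1 or Slc3a2), and the sterol exporter is a pair of Abcg5 and Abcg8. In intestine many of these genes, but not all, are known mainly from mature enterocytes, the absorptive cells of the villus.

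Between 38.3% and 43.4% of the non-control spots were well above background for a given RNA and array. All 8 genes of an M cell marker list, the cells RankL is known to induce, were at least 2-fold higher with RankL (median log2 ratio 4.54). Of 11 enterocyte markers, 5 were higher and 1 lower by the same measure, with a median of 0.91. Their summed background-subtracted signal was 125569 and 146217 in RankL RNA against 137863 and 152198 in untreated RNA on arrays 1 and 2. These sums were not normalized between the dyes and weigh bright probes most, so they do not give a direction. Of 3 measured stem cell markers, Lgr5 (-2.30) and Smoc2 (-1.48) were lower and Ascl2 was at 0.07. No immune or endothelial marker was measured (0 of 4 and 0 of 3 with a probe), and of 5 fibroblast markers Col1a2 alone was, at 0.17. These arrays read whole organoids, so fewer cells of a type and less RNA per cell cannot be told apart, and the part of the cell type makeup in the values below was not tested.

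Values are log2 ratios of RankL over untreated, and a gene was called higher or lower where the mean of the arrays was at least 1 in size (2-fold) and each array read at least 0.5 in that direction. By this size rule 2 of 40 measured transporters were higher with RankL, Slc2a5 and Slc20a1, which is 5.0% against 5.47% of all measured genes. Another 5 were lower, Slc39a5, Slc26a3, Slc7a8, Slc7a7 and Slc1a5, which is 12.5% against 2.5% of all measured genes. The remaining 33 met the rule in neither direction. Of the 5 lower genes, Slc26a3 counted as measured through the untreated RNA alone. Over probes above background in both RNAs, 2 transporters were higher and 4 lower, beside 4.64% and 2.47% of all genes. The median over the 40 genes was -0.08, with 25 below 0, beside 0.01 for all genes, 49% of which were below 0. With the minimum lowered to 0.5 on each array and none for the mean, a rule chosen after seeing the data, 5 transporters were higher and 8 lower, where the share of all genes was 10.2% and 6.63%. The median SD between arrays was 0.184 for the transporters and 0.148 for all genes, where the 90th percentile was 0.382.

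The substrate classes stood at different places. Sugar carriers had a median of 0.31 (4 measured) and the vitamin and organic solute carriers of 0.28 (6 measured). Ion transporters were at -0.06 (6 measured), the class of bile acid, lipid and ABC transporters at -0.08 (8 measured) and metal transporters at -0.14 (5 measured). The amino acid and peptide carriers lay lowest at -0.42 (11 measured), with 8 of the 11 below 0, and held 3 of the 5 genes called lower. On array 1 and array 2 alone the sugar median was 0.11 and 0.65, the vitamin and organic solute median 0.42 and 0.20, the amino acid median -0.36 and -0.47, the metal median -0.02 and -0.32, the ion median -0.07 and -0.01, and the bile acid, lipid and ABC median 0.10 and -0.05. The amino acid class was thus the lowest on each array, while the highest class was the vitamin carriers on array 1 and the sugar carriers on array 2. These medians rest on few genes and their differences were not tested.

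**Figure D1:**
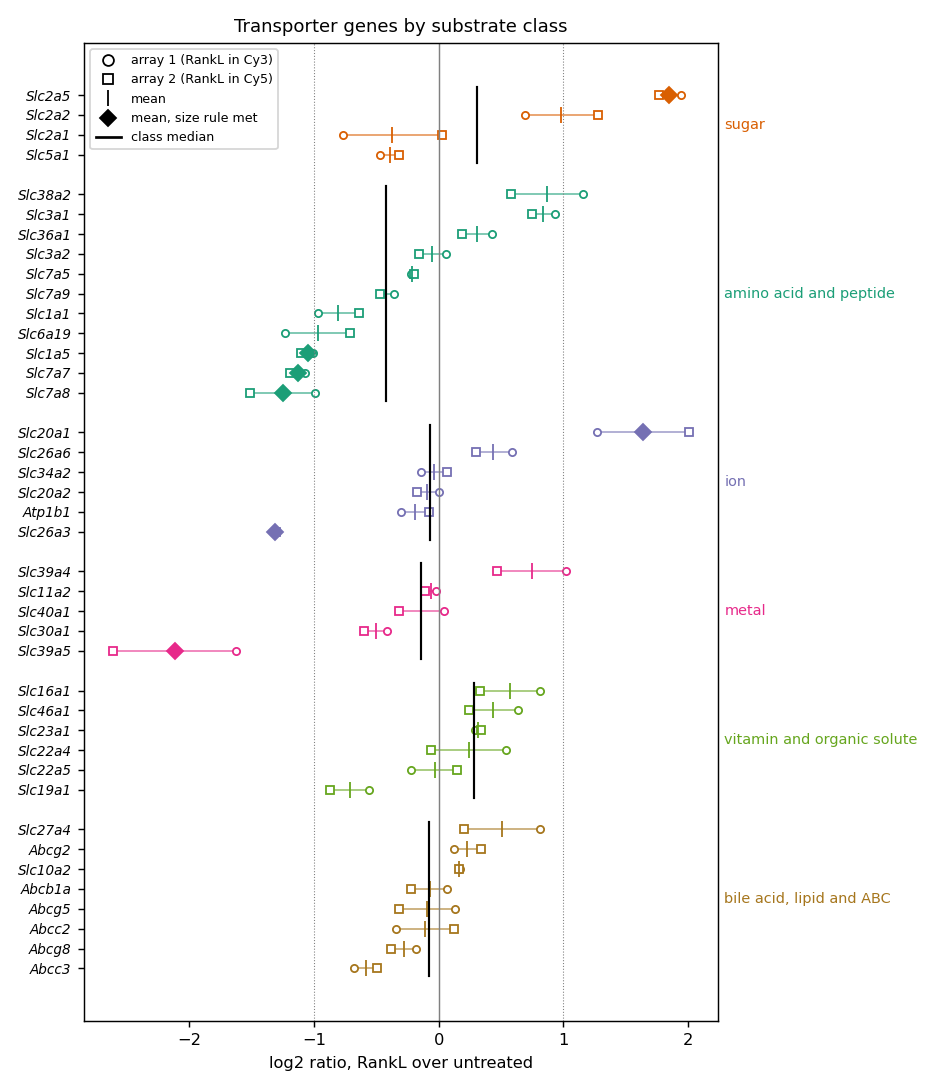
Log2 ratio of RankL over untreated (x axis) for the 40 measured transporter genes, grouped by substrate class, with circles for array 1, squares for array 2, ticks or diamonds for the mean and black lines for the class median. Slc2a5 and Slc20a1 lie to the right of 1, 5 genes lie to the left of -1, and the 3 amino acid carriers among these pull below a class median of -0.42.

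Among the sugar carriers, Slc2a5, the apical fructose transporter GLUT5, was the highest of all the members. Its normalized log2 signal was 12.60 and 12.57 in RankL RNA and 10.66 and 10.80 in untreated RNA on arrays 1 and 2, so the RNAs did not overlap. The ratio was 1.85 ± 0.12, or 3.61-fold. Slc2a2, the basolateral hexose carrier GLUT2, had signals of 8.65 and 8.93 with RankL against 7.96 and 7.65 without. Its ratio of 0.98 ± 0.41 lay just short of the rule, which it met at 1.12 with a smaller background offset (16) and at 1.20 with the scanner software's ratios, and a second, dimmer probe read 0.17. The glucose transporter Slc5a1 (SGLT1) was at -0.39 ± 0.11, with signals of 9.10 and 9.29 with RankL and 9.57 and 9.61 without, and -0.61 on its second probe. Slc2a1, the facilitative glucose carrier GLUT1, read -0.77 on array 1 and 0.03 on array 2, so that its mean of -0.37 ± 0.56 had no settled direction. Slc2a5 therefore read above Slc5a1 by 2.40 and 2.08 on the log2 scale on the arrays, and Slc2a2 above Slc5a1 by a mean of 1.38.

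Amino acid carriers were lower more often than higher. Slc7a7, the light chain of the basolateral exporter of cationic amino acids (y+LAT1), had signals of 10.33 and 10.34 with RankL and 11.40 and 11.52 without, a ratio of -1.13 ± 0.083. Slc7a8, the light chain of the neutral amino acid exchanger LAT2, read 9.18 and 8.84 with RankL and 10.17 and 10.35 without, a ratio of -1.25 ± 0.37. On array 1 alone Slc7a8 was at -0.99, just under the minimum of 1. Slc1a5, the glutamine carrier ASCT2, read 10.56 and 10.40 with RankL and 11.56 and 11.50 without, at -1.05 ± 0.064 the called member closest to the minimum. In each of these 3 genes both RankL signals were below both untreated signals.

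The heavy chain that Slc7a7 and Slc7a8 share did not follow them. Slc3a2 (4F2hc) had signals of 11.15 and 10.98 with RankL and 11.09 and 11.15 without, which overlap, and a ratio of -0.05 ± 0.16. Slc7a7 lay below it by 1.12 and 1.02 and Slc7a8 by 1.05 and 1.35 on arrays 1 and 2. Slc7a5, the light chain of LAT1 and another partner of Slc3a2, was at -0.21 ± 0.013. The second heavy chain, Slc3a1 (rBAT), which pairs with Slc7a9 in the apical uptake of cystine and basic amino acids, was at 0.84 ± 0.13, with signals of 9.60 and 9.49 with RankL and 8.67 and 8.74 without. Slc7a9 itself was at -0.42 ± 0.080, below Slc3a1 by a mean of 1.25 with an SD of 0.050 between arrays.

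Slc6a19, the apical neutral amino acid carrier B0AT1, was at -0.97 ± 0.37, with signals of 6.57 and 6.89 with RankL and 7.80 and 7.60 without. It was well above background in RankL RNA on 1 of 2 arrays, read -1.23 on array 1 and -0.71 on array 2, and met the rule at -1.28 with an offset of 16, at -1.01 with median centring and at -1.83 with the scanner software's ratios. Slc1a1, the apical glutamate carrier EAAT3, was at -0.81 ± 0.23, and at -0.96 on its second probe. Slc38a2, a sodium-coupled neutral amino acid carrier (SNAT2), was the highest of the class at 0.87 ± 0.41, with signals of 10.48 and 10.02 with RankL and 9.32 and 9.43 without. Its dimmer probe read 1.12. Slc36a1, a proton-coupled amino acid carrier, was faint and at 0.31 ± 0.17, or 0.66 with the scanner software's ratios. The peptide transporter Slc15a1 (PEPT1) was dim in both RNAs, so neither a level nor a ratio is given.

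**Figure D2:**
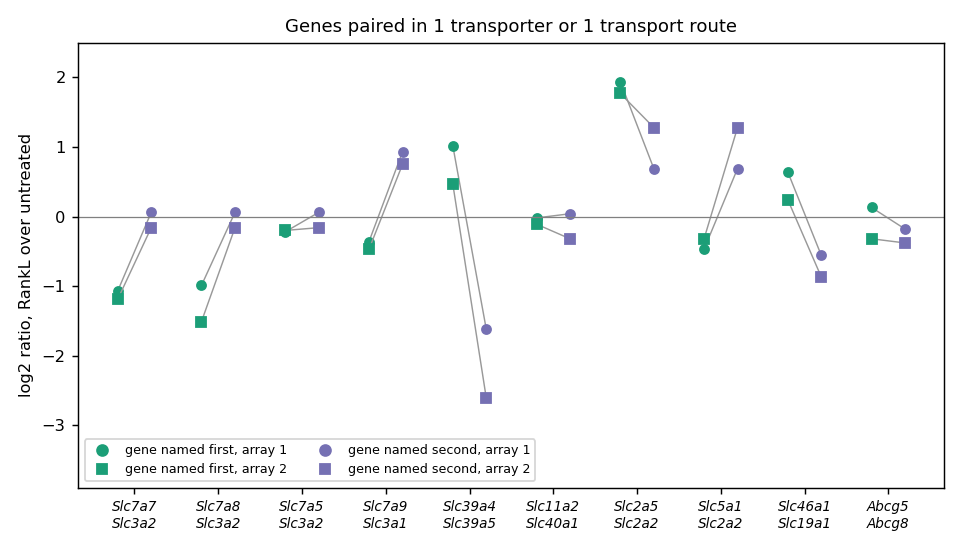
Log2 ratio of RankL over untreated (y axis) for genes that form 1 transporter or serve 1 route, the gene named first in green and the second in purple, with circles for array 1 and squares for array 2 joined within each array. Slc7a7 and Slc7a8 lie below the shared chain Slc3a2 by means of 1.07 and 1.20, and Slc39a4 lies above Slc39a5 by 2.86.

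Metal carriers held the lowest value of the members. Slc39a5, the basolateral zinc importer ZIP5, had signals of 7.88 and 7.68 with RankL and 9.49 and 10.28 without, so the RNAs did not overlap. The ratio was -2.11 ± 0.70, or 4.32-fold lower, at -1.62 on array 1 and -2.61 on array 2. Slc39a4, the apical zinc importer ZIP4, was at 0.75 ± 0.39, with signals of 12.50 and 12.33 with RankL and 11.48 and 11.86 without, and it read above Slc39a5 by 2.64 and 3.07 on the arrays. The zinc exporter Slc30a1 (ZnT1) was at -0.50 ± 0.13, with the same mean on its second probe, and at -1.08 with the scanner software's ratios. The iron carriers read near 0. Slc11a2, the apical iron importer DMT1, was at -0.06 ± 0.065, with a range from -0.30 to 0.19 over its 3 probes. Slc40a1, the iron exporter ferroportin, was at -0.14 ± 0.25, but its signals were faint and the background offset pulls such ratios towards 0.

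In the ion class, Slc20a1, a sodium-phosphate cotransporter (PiT-1), had signals of 9.82 and 10.37 with RankL and 8.55 and 8.37 without. Its ratio was 1.64 ± 0.52, or 3.11-fold, but a second measured probe of the same accession read 0.04, and the median over both probes was 0.84, short of the rule. The related cotransporter Slc20a2 was faint and at -0.09 ± 0.12, so its ratio cannot be set against that of Slc20a1. Slc26a3, the apical chloride-bicarbonate exchanger DRA, had signals of 7.68 and 7.65 in untreated RNA and was not well above background in RankL RNA on either array (6.35 and 6.36). As measured it was 2.48-fold lower (-1.31 ± 0.023). Because its RankL signal was not well above background, this value is uncertain and no firm bound is given. The scanner software's ratio for it was -3.11. The other apical anion exchanger, Slc26a6, was at 0.44 ± 0.20, and 0.46 on its second probe. Atp1b1, the beta chain of the Na,K-ATPase, was at -0.19 ± 0.15, and the phosphate carrier Slc34a2 was faint and at -0.04 ± 0.15. The sodium-proton exchangers Slc9a2 and Slc9a3, the bicarbonate carrier Slc4a4 and the sulfate carrier Slc13a1 were dim in both RNAs.

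**Figure D3:**
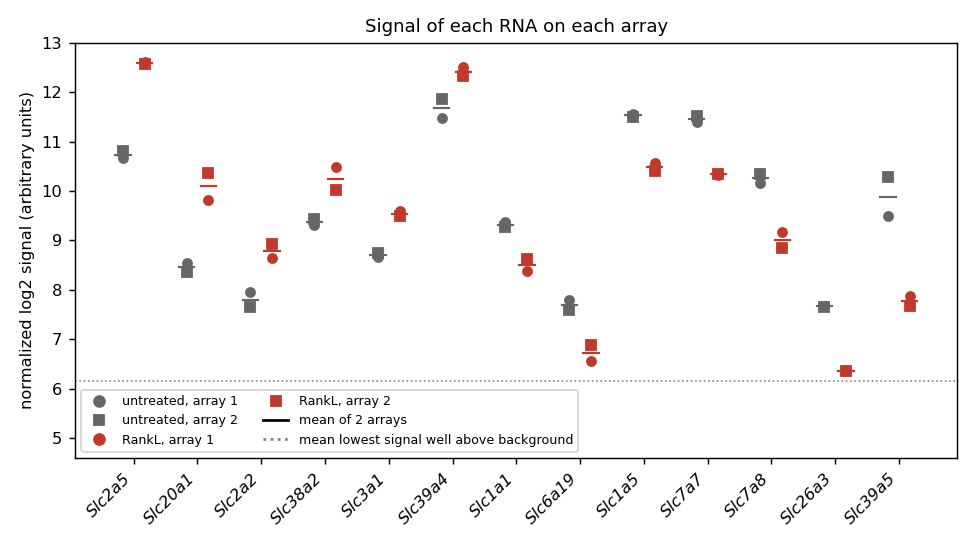
Normalized log2 signal (y axis) of 13 transporter genes in untreated RNA (grey) and RankL RNA (red) on array 1 (circles) and array 2 (squares), with bars for the mean of the arrays and a dotted line for the lowest signal called well above background. Signals of different probes are not comparable in level, and within each gene shown the RankL and untreated points do not overlap.

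None of the vitamin and organic solute carriers met the size rule. The lowest was Slc19a1, the reduced folate carrier, at -0.71 ± 0.22, with signals of 9.88 and 9.69 with RankL and 10.44 and 10.56 without. Slc46a1, the proton-coupled folate transporter of the brush border, was at 0.44 ± 0.28, so the folate carriers differed by 1.20 and 1.11 on arrays 1 and 2. The highest was Slc16a1, the monocarboxylate carrier MCT1, at 0.57 ± 0.34, with 0.30 on its second probe. Slc23a1, a vitamin C carrier, was faint, above background in untreated RNA on 1 of 2 arrays, and at 0.32 ± 0.038, although the scanner software's ratio was 1.11. The organic cation and carnitine carriers Slc22a4 and Slc22a5 were at 0.24 ± 0.42 and -0.03 ± 0.27.

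Bile acid, lipid and ABC transporters lay in the narrowest range of the classes, from -0.58 to 0.51, and 0 of 8 met the size rule. Slc10a2, the ileal bile acid importer ASBT, gave faint signals of 6.59 and 6.76 with RankL and 6.42 and 6.60 without, a ratio of 0.16 ± 0.0093. Abcc3, a basolateral exporter of conjugates (MRP3), was the lowest at -0.58 ± 0.14, with signals of 9.54 and 9.62 with RankL and 10.22 and 10.11 without, while the apical exporter Abcc2 (MRP2) was at -0.11 ± 0.33. Slc27a4, a fatty acid transport protein, was the highest at 0.51 ± 0.43. The drug exporters Abcb1a and Abcg2 were at -0.07 ± 0.21 and 0.23 ± 0.16, with -0.07 on the second Abcg2 probe. Of the chains of the sterol exporter, Abcg5 was at -0.09 ± 0.32 and Abcg8 at -0.28 ± 0.14. Abcg8 was faint, above background in RankL RNA on 1 of 2 arrays, and read -0.64 with the scanner software's ratios, where Abcg5 read -0.12. A second Abcg8 probe, also faint but above background in both RNAs on both arrays, read -0.21, and -0.18 with the software's ratios. Abcb1a was faint as well, and probes of closely related ABC genes may share signal, so Abcb1a is uncertain as a single gene.

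**Figure D4:**
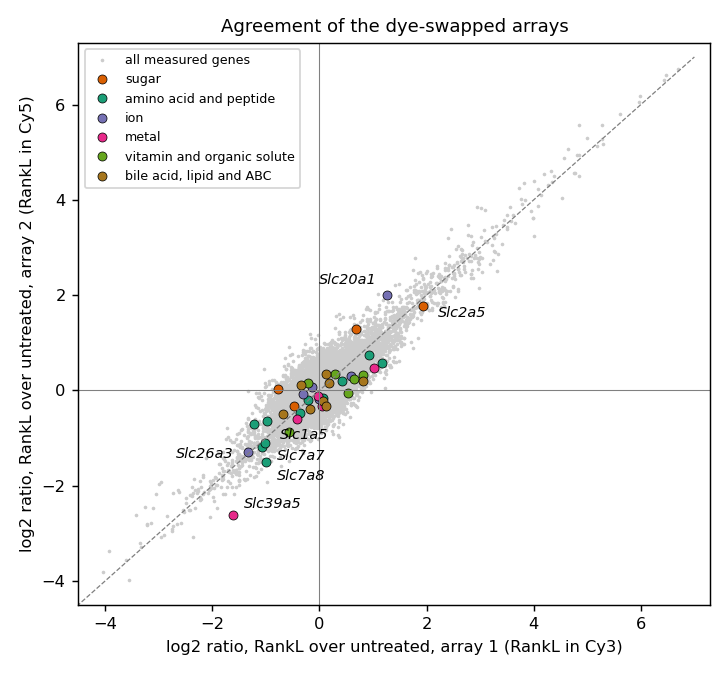
Log2 ratio of RankL over untreated on array 1 (x axis) against array 2 (y axis) for all measured genes (grey) and for the transporter genes coloured by substrate class, with the line of equal values dashed. The 7 named genes met the size rule. Of these, Slc39a5 and Slc20a1 lie farthest from that line. Slc39a5 was lower on array 2 (-2.61) than on array 1 (-1.62) and Slc20a1 higher (2.01 against 1.27). Their SDs between arrays, 0.70 and 0.52, were above the 90th percentile of all genes (0.382).

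Members were also grouped by the membrane they are known from. Of 22 measured apical carriers, 1 was higher and 2 lower, with a median of -0.05. Of 9 measured basolateral ones, 0 were higher and 3 lower, with a median of -0.50 and 8 of 9 below 0. Of these 9, Slc2a2 alone read above 0, at 0.98. Of all measured genes, 5.47% were higher and 2.5% lower. The lower basolateral genes were Slc39a5 and the amino acid light chains Slc7a7 and Slc7a8, so side was not separated from substrate class. The difference between the sides was not tested. Among the other 9 genes, whose side was left unassigned, the median was 0.24, with 5 above 0 and 4 below. The lists of other transport route genes below were not grouped by side. Basolateral genes in them, such as the exporter chains Slc51b (2.02) and Slc51a (1.14), were not counted here. Of 161 other measured Slc genes, 11 were higher and 9 lower (6.83% and 5.59%), with a median of -0.02.

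The start regions of members on either side of 0 are shown for their letters alone. RefSeq's table for GRCm38.p6 held 51 windows for 39 of the 49 genes, and the 250 bases before each start were searched on both strands. The motifs were GGG and CC with any 5 letters between for NF-kB, CAAAGTCCA for HNF4, GTTAAT for HNF1, TTTATG for CDX2, GAGGAA for Ets factors of the Spib kind, GGGCGG for the GC box and TATAAA for the TATA box. The NF-kB letters were found in 58.8% of the transporter windows and 45.8% of all 32851 windows, and the GC box, with which they overlap in part, in 51.0% and 32.7%. A tighter NF-kB pattern (GGANNTTCC), added after these shares were seen, was in 1.96% and 3.59%, so the order of the shares depends on the pattern chosen. The Ets letters were in 31.4% and 23.3%, HNF1 in 11.8% and 6.43%, CDX2 in 7.84% and 10.8%, the TATA box in 11.8% and 12.4%, and HNF4 in 1.96% and 0.384%. A match describes the sequence only. Capitals mark every match, and each line gives the bases before the start, 5′ to 3′ on the gene's strand. Slc2a5 (chr4:150119094-150119343, plus strand) is shown as the highest member, Slc7a8 (chr14:54781887-54782136, minus strand) as the lowest amino acid carrier, and Slc26a3 (chr12:31437969-31438218, plus strand) as the member seen above background in untreated RNA alone. The Abcg5-Abcg8 line holds the 109 bases between the starts of these divergent genes (chr17:84683012-84683120, plus strand), a stretch they share.
Slc2a5: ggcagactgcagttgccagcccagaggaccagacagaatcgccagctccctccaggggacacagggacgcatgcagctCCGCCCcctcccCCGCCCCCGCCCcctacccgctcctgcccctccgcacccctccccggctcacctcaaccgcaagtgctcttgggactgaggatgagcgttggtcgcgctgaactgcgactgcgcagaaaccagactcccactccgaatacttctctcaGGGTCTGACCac
Slc7a8: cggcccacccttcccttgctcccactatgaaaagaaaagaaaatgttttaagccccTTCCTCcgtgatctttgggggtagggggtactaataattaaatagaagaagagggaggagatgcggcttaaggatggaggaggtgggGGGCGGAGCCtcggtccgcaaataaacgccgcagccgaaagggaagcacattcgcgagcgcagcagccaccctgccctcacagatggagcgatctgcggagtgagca
Slc26a3: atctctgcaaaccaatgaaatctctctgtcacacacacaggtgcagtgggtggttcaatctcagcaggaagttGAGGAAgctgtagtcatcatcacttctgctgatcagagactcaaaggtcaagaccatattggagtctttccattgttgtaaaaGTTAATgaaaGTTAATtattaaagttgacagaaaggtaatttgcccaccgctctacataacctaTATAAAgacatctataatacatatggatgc
Abcg5-Abcg8: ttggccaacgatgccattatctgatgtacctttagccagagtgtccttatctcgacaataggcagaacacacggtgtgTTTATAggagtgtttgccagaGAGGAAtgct

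In these lines Slc2a5 has GC box letters at 3 positions (-172, -160 and -154 from the start) and NF-kB letters at -12. Slc26a3 has neither, but HNF1 letters at -94 and -84, Ets letters at -177 and TATA box letters at -30. Slc7a8 has Ets letters at -194, and at -107 both GC box and NF-kB letters. Over the 6 called members with a window, the HNF1 letters were in 3, Slc26a3, Slc39a5 and Slc7a7, beside 6 of all 39 members with a window. Those 3 were lower, as were most of the 6. The GC box and the NF-kB letters were in 5 each, in both directions of change, beside 23 and 24 of the 39. The tighter NF-kB pattern was in 1, Slc7a7. Slc39a5 and Slc7a7 have 2 and 5 windows, which gives them more letters to match, and the first Slc39a5 window held no match. Whether any letters go with the direction of change was not tested.

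Other genes of the same transport routes were taken from a list of 69, of which 53 were measured, with a median of -0.04. By the size rule 8 were higher and 6 lower (15.1% and 11.3%). Of all measured genes 5.47% were higher and 2.5% lower, the shares to set beside each list below. Around the sugar carriers, G6pc, which releases free glucose from its phosphate, was higher at 1.41 ± 0.077, and the sodium-dependent sugar carrier Slc5a9 was at 0.97 ± 0.042. In the amino acid list, the 5 measured genes reported here had a median of -0.34, but -0.67 on array 1 and -0.04 on array 2. Their mean ratios were all below 0, with none past the size rule. The lowest, just short of the rule before rounding, was Slc1a4, a neutral amino acid carrier related to Slc1a5, at -1.0 ± 0.089, with -0.93 on its second probe.

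In the ion list, Pdzk1, a scaffold protein that holds transporters at the brush border, was the highest at 2.82 ± 0.32, followed by Scnn1a, the alpha chain of the epithelial sodium channel, at 1.92 ± 0.13. S100g, the calcium-binding protein calbindin-D9k, was lower at -1.64 ± 0.34. Those 3 were the called genes of 11 measured, which also held the chloride channel Cftr at 0.18 ± 0.11. In the metal list, 2 of 12 were higher and 2 lower. Heph, the ferroxidase hephaestin that works with Slc40a1, was higher at 1.45 ± 0.12, as was the copper importer Slc31a1 at 1.13 ± 0.37, whose second probe read 0.10. The metallothioneins Mt1 and Mt2, which bind zinc and copper, were lower at -1.24 ± 0.12 and -1.07 ± 0.22. Mt1 and Mt2 are close copies whose probes may share signal.

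The vitamin list had 0 higher and 2 lower of 7 measured, with a median of -0.77. The lower genes were the nucleoside carrier Slc28a3 at -1.61 ± 0.14 and the thiamine carrier Slc19a2 at -1.23 ± 0.16. In the bile acid and lipid list 3 of 11 were higher and 1 lower. Slc51b and Slc51a, the 2 chains of the basolateral bile acid exporter OST, were higher at 2.02 ± 0.25 and 1.14 ± 0.25, and the fatty acid binding protein Fabp2 at 1.09 ± 0.13, with 0.59 on its second probe. Nr1h4, the bile acid receptor FXR, was lower at -1.75 ± 0.085. Fabp6 and Fgf15, other bile acid response genes of the ileum, were dim in both RNAs. The importer Slc10a2 read 0.16, but its signals were faint and the background offset pulls such ratios towards 0. Its ratio therefore cannot be set against those of the exporter chains.

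**Figure D5:**
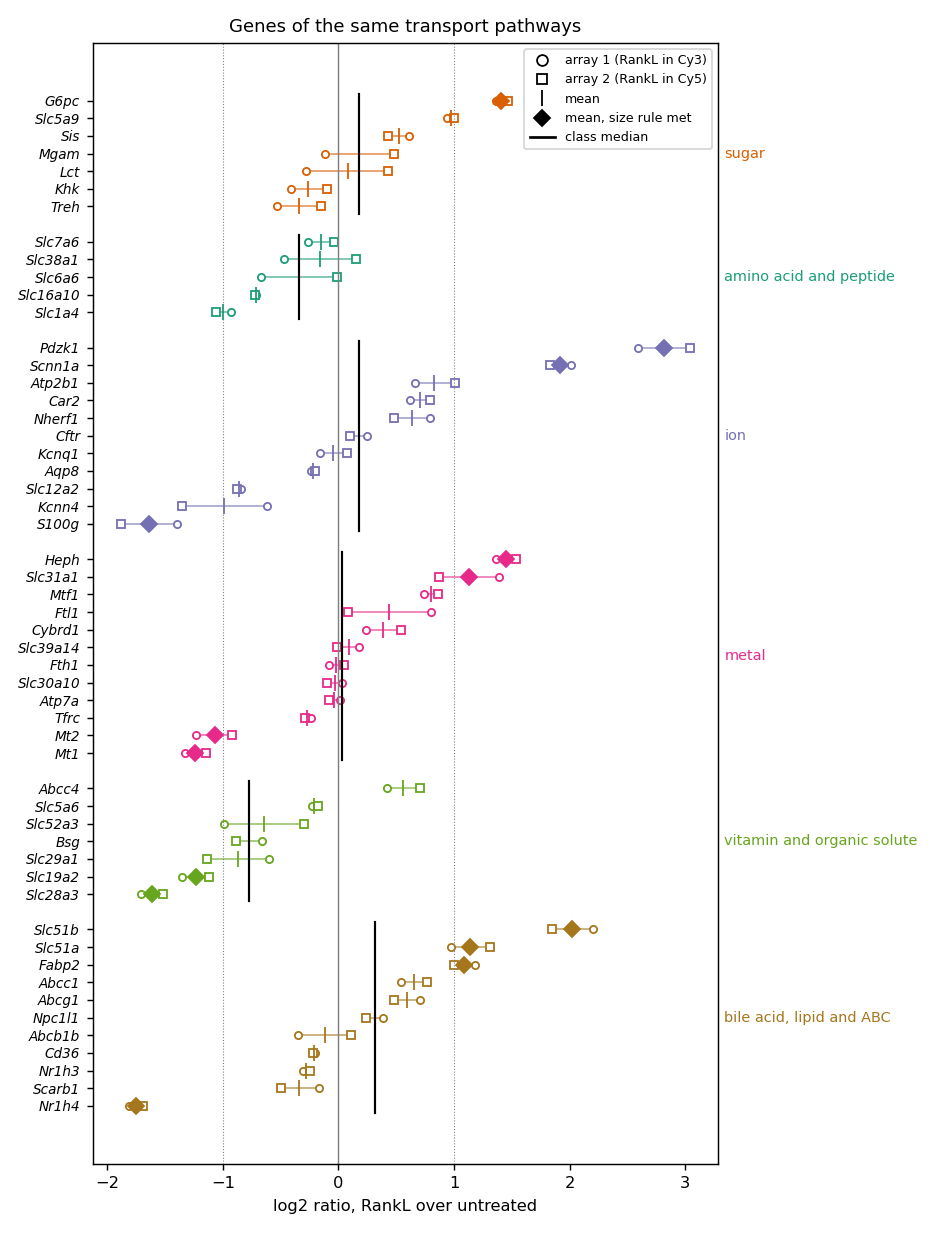
Log2 ratio of RankL over untreated (x axis) for the 53 measured genes of the same transport routes that are not among the transporters followed above, by substrate class, with circles for array 1, squares for array 2, diamonds for means that met the size rule and black lines for class medians. Pdzk1 (2.82) and Slc51b (2.02) lie farthest to the right and Nr1h4 (-1.75) and S100g (-1.64) farthest to the left.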

How the data were processed

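The deposited scanner files hold spot intensity values of both dyes, unnormalized, per the file headers, made with Agilent Feature Extraction 10.5.1.1 (the submitters' processing notes name 8.5.1.1), with flags of 0 or 1. The same software gave the deposited log10 ratios (red against green) after its own background and dye correction, per the file headers, and the authors' series table holds them turned to RankL over untreated (largest difference 5e-06, median 0 in both columns).

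Median spot signals were corrected with normexp (offset 50) in limma 3.58.1 (R 4.3.3), which compresses ratios, and normalized by loess with control spots at weight 0. Control and outlier spots were left out. Ratios were turned to RankL over untreated and averaged over both arrays, taken as 1 replicate. Signals per RNA were further scaled with Aquantile. RefSeq accessions, matched without version to a GRCm38.p6 table, named 65.4% of 41174 probes. Each gene was read from the brightest of its measured probes. Full values were given for called members, the ends of each class and their partners. The members, lists, classes and membrane sides were chosen with earlier results of these data known. Some genes of the transport routes are not reported here and are left out of those lists' counts. The processing was tested on simulated data. Alternatives were the software's ratios, an offset of 16, median centring, other probe filters, the median over probes and single arrays.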

Additional observations from a re-analysis of the deposited data

How the results depend on the processing

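With the scanner software's log ratios, 1148 genes were higher and 781 lower in all (8.92% and 6.07%). Of the 40 transporters, 4 were higher and 8 lower. All 7 called in the main setting were among these, and Slc2a2, Slc23a1, Slc6a19, Slc1a1 and Slc30a1 were added. Under that setting the ion median was -0.24 and the vitamin and organic solute median 0.43. The amino acid median was -0.51 with median centring, -0.31 with dim probes included and -0.31 over probes above background in both RNAs. Under that last filter Slc26a3 dropped out, leaving 4 transporters lower, beside 2.47% of all genes. With an offset of 16, Slc2a2 and Slc6a19 were added to the calls, giving 3 higher and 6 lower, beside 6.87% and 3.32% of all genes. Median centring added Slc6a19, giving 2 higher and 6 lower, beside 4.74% and 3.02%. With the median over probes, 1 transporter was higher, beside 4.87% of all genes, since Slc20a1 fell short. By a rule chosen after seeing the data, 5 were higher and 8 lower with 0.5 on each array (10.2% and 6.63% of all genes). With every measured probe required to meet the size rule, also chosen after seeing the data, 1 was higher and 5 lower. No share over all genes was taken for that rule. From 1 array alone, 3 to 4 transporters were higher, beside 5.68% of all genes on either array. The ion median then ran from -0.07 to -0.01 and the bile acid, lipid and ABC median from -0.05 to 0.10. The calls that depended on 1 array were Slc2a2 on array 2, and Slc38a2, Slc39a4 and Slc6a19 on array 1, where Slc7a8 was lost. Of the 40 transporter ratios, 13 moved by at least the SD between arrays with the scanner software's ratios, 5 with an offset of 16 and 7 with median centring, and no called transporter changed sign under these. Where a setting changed a value, the cause was not tested. No paired analysis was possible because both arrays hold the same RNA pair. Faint members near the background, such as Slc10a2, Slc34a2, Slc20a2, Abcb1a and Slc40a1, have ratios that the offset pulls towards 0.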
